A study of Homo sapiens with 64 samples.

Results

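In BEAS-2B cells given indacaterol and GSK 256066 together, the effect on 9 genes differed between 6 and 18 h, in each case a difference from vehicle at 6 h that was smaller in size at 18 h. CSGALNACT1 and SLC7A2, 7.52-fold and 4.04-fold above vehicle at 6 h, were 1.19-fold and 1.38-fold above it at 18 h, and ZNF143 and MVK, lower with both drugs at 6 h, were level with vehicle in mean at 18 h (effects of 0.10 and 0.09 on the log2 scale). The measure described here is a difference of differences for each gene, the effect of both drugs against vehicle at 18 h minus the same effect at 6 h, called below the change of effect. A negative change marks a rise that shrank or a fall that grew, and a positive change the reverse. It was taken over 16 of the 64 arrays of the series, 4 replicates in each of 4 groups. These groups were vehicle for 6 h, 10 nM indacaterol with 10 nM GSK 256066 for 6 h, vehicle for 18 h, and both drugs at the same doses for 18 h. BEAS-2B is an established line of human airway epithelial cells, and all groups were grown to confluence in serum-free keratinocyte medium before treatment. No genotype differs between the groups, and the labels do not say whether replicates came from separate cultures, so p-values measure the spread between these samples only.

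Indacaterol is a long-acting agonist of the beta-2 adrenoceptor, which acts through Gs and adenylyl cyclase to make cyclic AMP (cAMP). cAMP activates protein kinase A, which phosphorylates the transcription factor CREB, and CREB binds cAMP response elements near its target genes. Phosphodiesterases break cAMP down, and GSK 256066 inhibits the phosphodiesterase 4 (PDE4) family. Many CREB targets encode products that damp the pathway, among them phosphodiesterases and salt-inducible kinases, and sustained agonist exposure is known to desensitise the receptor.

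Values are array signals as the authors deposited them, and differences are on the scale of log2(signal + 16), which understates changes of dim genes. The median signal of the 16 arrays lay between 109.4 and 125.1. The arrays of replicate 3 stood apart at both times and under both treatments: KRT14 gave 344600 to 419700 there against 16.8 to 31.7 in the other replicates, and KRT5 32420 to 36670 against 115 to 222. The highest signal on any array was 355000 to 1082000 in replicate 3 and 17640 to 18400 in the others, and whether these values belong to the cells or to the processing was not tested. Of 11 airway epithelial markers measured, KRT8 and KRT18 gave 3048 to 8817 over the 16 arrays. ELF3, GRHL2, CLDN4 and ESRP1 gave 8.87 to 241.5. EPCAM, CDH1 and KRT19 were higher in replicate 3, with 114 to 208, 548 to 1432 and 2287 to 4407. In the other replicates they gave 28.7 to 110, 154 to 412.5 and at most 116. Of 11 fibroblast markers, COL1A1 gave 6699 to 10680 and made up most of the summed signal, PDGFRB, THY1 and TCF21 gave 469.6 to 2539, and the other 7, COL1A2, COL3A1 and PDGFRA among them, gave 11.9 to 223. PDGFRB, THY1 and TCF21 were each lower in replicate 3 (469.6 to 1092) than on any array of the other replicates. The sum of the fibroblast markers was 10470 to 16370 with vehicle and 11050 to 17360 with both drugs at 6 h, and 11650 to 15720 and 9559 to 15440 at 18 h. The leukocyte marker PTPRC was at most 42.4. None of the markers of airway epithelium (11), fibroblasts (11), leukocytes (9), ciliated cells (8) or secretory cells (10) passed the test for a change of effect in either fit. Same-numbered arrays of the 4 groups deviated together, with correlations of 0.232 to 0.857 for every pair, so a fit with replicate number as a term is given beside the fit without it.

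At 6 h both drugs against vehicle gave 98 genes higher (0.496% of 19775 tested) and 52 lower (0.263%), by limma with Benjamini-Hochberg adjustment at 0.05. At 18 h the same comparison gave 4 higher (0.0202%) and 3 lower (0.0152%), and 1032 genes had an unadjusted p under 0.05 there. With the replicate term the counts were 505 higher (2.55%) and 538 lower (2.72%) at 6 h, against 50 higher (0.253%) and 30 lower (0.152%) at 18 h. The 6 h count of 150 (0.759%) fell to 67, 59 and 83 without replicate 1, 2 or 4, and to 94 and 83 without the single 6 h arrays of both drugs of replicates 1 and 3. The 18 h count of 7 (0.0354%) fell to 0 without replicate 1, to 1 without replicate 3, and to 2 or 3 without any of the single 18 h arrays of replicates 1 and 3 or the vehicle array of replicate 2. With the term, the 1043 genes at 6 h (5.27%) became 435, 691, 505 and 657 without replicates 1 to 4, and the 80 at 18 h (0.405%) became 9, 47, 15 and 63. The balance of directions moved with scaling: quantile normalization gave 167 higher and 168 lower at 6 h, and centring each array on its median gave 1 higher and 3 lower at 18 h. The change of effect itself was called for 4 genes in the positive direction (0.0202%) and 5 in the negative (0.0253%), with 916 genes at an unadjusted p under 0.05. The spread in this fit comes from all 64 arrays; from the 16 arrays alone 0 positive and 1 negative gene were called (64 with the replicate term), and quantile normalization of the 64 gave 19 and 19. With the replicate term it was called for 118 positive (0.597%) and 112 negative (0.566%) genes, a total of 230 (1.16%) that includes all 9 (0.0455%) of the first fit. With centred arrays 3 positive and 6 negative genes were called without the term. Over all genes the median change of effect was 0.03.

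The counts of the fit with the replicate term moved with each replicate left out. The 230 genes became 32 without replicate 1, 66 without replicate 2, 79 without replicate 3 and 48 without replicate 4, where fewer arrays carry the fit. Of the 79 genes called without replicate 3, 73 were among the 230. Without the replicate term, the 9 became 5 without replicate 1, 21 without replicate 3, 3 without replicate 4, and 14 without replicate 2 of the 6 h arrays of both drugs.

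Of the 98 genes higher at 6 h, 97 had a smaller effect at 18 h, and the median effect went from 0.80 to 0.19. Of the 52 lower at 6 h, all 52 had a smaller effect at 18 h, and the median went from -0.40 to 0. At least a 2-fold rise was seen in 30 of the 98 at 6 h and in none of the 4 genes called higher at 18 h. SMOC1, not among those 4, was 5.17-fold above vehicle at 6 h and 2.69-fold above it at 18 h. The 98 and the 52 genes were chosen by their 6 h effect, which the change of effect subtracts, so the counts are a description that the choice largely fixes. Over all genes 10161 of 19775 (51.4%) had a smaller effect at 18 h, and all 7 genes called at 18 h had a smaller effect at 6 h, as did 53 of the 80 called there with the replicate term. P4HTM, a transmembrane prolyl hydroxylase of the endoplasmic reticulum, was the 1 gene called higher at both times, with 0.25 ± 0.06 (SE, n = 4 per group) at 6 h and 0.36 ± 0.06 at 18 h. Its 18 h signals were 1716, 1671, 1704 and 1634 with both drugs against 1319, 1331, 1278 and 1303 with vehicle.

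**Figure D1:**
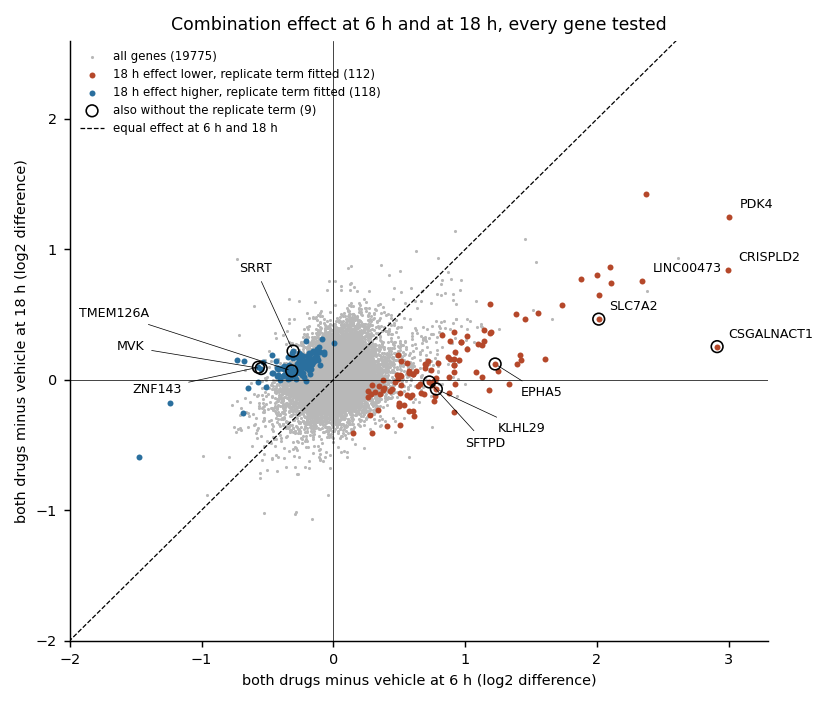
Each point is 1 of 19775 genes, with the log2 difference between both drugs and vehicle at 6 h on the horizontal axis and at 18 h on the vertical axis. Coloured points are the 112 negative and 118 positive changes of effect called with a replicate term, circles the 9 also called without it, and the dashed line marks an equal effect at both times. The called genes stretch along the horizontal axis, far from the dashed line, with CSGALNACT1 at 2.91 and 0.25.

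With the replicate term, more of the genes called for a change of effect moved in the treated arrays than in the vehicle arrays. The change of effect equals the difference from 6 to 18 h under both drugs minus that under vehicle. The choice of genes therefore largely fixes the directions below, and the counts are a description. The background in that fit was 14.3% of all genes rising and 6.2% falling from 6 to 18 h under both drugs, and 8.92% and 4.74% under vehicle. With the replicate term, 104 of the 112 genes with a negative change of effect fell from 6 to 18 h under both drugs, while under vehicle 12 rose and 17 fell. Of the 118 positive genes, 99 rose from 6 to 18 h under both drugs, while under vehicle 20 fell and 25 rose. Vehicle alone differed between 18 and 6 h in 612 genes upward (3.09%) and 348 downward (1.76%). APOLD1, TESMIN and ZC3H6 rose most under vehicle (1.38, 1.27 and 1.24), and CPA4, GPRC5A and SHISA9 fell most (-1.15, -1.09 and -1.09). Under both drugs, 1331 genes rose (6.73%) and 512 fell (2.59%) over the same hours. Quantile normalization gave 676 genes upward and 623 downward for vehicle, and 1273 and 805 for both drugs. The count for vehicle dropped from 960 (4.85%) to 293 without replicate 4, to 520 without its single 18 h array, to 365 without replicate 2 and to 415 without replicate 1. For both drugs it dropped from 1843 (9.32%) to 1024 without replicate 2, 1050 without replicate 4 and 1114 without replicate 1.

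CSGALNACT1 adds the first sugar of chondroitin sulfate to the linker on proteoglycans, and had the greatest change of effect. Its signals at 6 h were 146, 109.9, 95.5 and 159.6 with vehicle and 1598, 678, 1229 and 903 with both drugs, in the order of replicates 1 to 4. At 18 h they were 123, 86.3, 116 and 166 with vehicle and 108, 176, 143 and 167 with both drugs. The treated arrays lay above every vehicle array at 6 h and mixed with them at 18 h. The effect went from 2.91 ± 0.25 (7.52-fold) to 0.25 ± 0.25, a change of -2.66 ± 0.36 (limma, adjusted p = 2.27e-05). It was negative in 4 of 4 replicates, from -3.48 in replicate 1 to -1.55 in replicate 2. Another probe set of the gene gave -0.001, so the call rests on 1 of its probe sets. CSGALNACT1 was called without each of the 4 replicates, in both fits.

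SLC7A2 encodes a transporter of cationic amino acids such as arginine. Its 6 h signals were 685, 495, 534 and 617 with vehicle and 2786, 1763, 2818 and 2327 with both drugs. Its 18 h signals were 808, 582, 457 and 559 with vehicle and 938, 718, 969.8 and 689 with both drugs. The groups were separate at 6 h and overlapped at 18 h, where the treated mean of 828 was above the vehicle mean of 601 but the difference of 0.47 ± 0.19 missed the threshold (limma, adjusted p = 0.871). Within each replicate the treated array exceeded its vehicle array at 18 h, and with the replicate term the limma adjusted p was 0.0794. The change of effect was -1.55 ± 0.27 (adjusted p = 0.00322). Without replicate 2 or replicate 4 it kept its size (-1.56 and -1.53) but not its call (adjusted p = 0.0654 and 0.415). Other SLC7A2 probe sets gave -0.72 and -0.11 and were not called.

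EPHA5, a receptor for ephrins, followed the same course. Signals at 6 h were 43.7, 57.8, 45.6 and 50.3 with vehicle and 137, 119, 155 and 138 with both drugs. At 18 h they were 72.3, 77.8, 56.2 and 73.5 with vehicle and 61.6, 95.7, 76.3 and 77.6 with both drugs. The treated arrays were the higher ones at 6 h and overlapped vehicle at 18 h, and the effect went from 1.23 ± 0.15 to 0.12 ± 0.15 (change -1.11 ± 0.21, limma adjusted p = 0.0129). Other EPHA5 probe sets gave -0.09 and 0.14, and the mean of its probe sets gave -0.35 (adjusted p = 1), so the call rests on 1 probe set. It was lost without replicate 1 or 4 as a whole (adjusted p = 0.587 and 0.49), and without any of 4 single arrays: replicate 1 of vehicle at 6 h, replicate 3 of both drugs at 6 h, replicate 2 of vehicle at 18 h and replicate 1 of both drugs at 18 h (adjusted p = 0.0557 to 0.0664).

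KLHL29, a member of the kelch-like family, showed tight vehicle arrays and an 18 h level below that of 6 h in both groups. Its signals were 1199, 1181, 1177 and 1243 with vehicle and 2088, 1723, 2823 and 1817 with both drugs at 6 h. They were 1010, 922, 963 and 935 with vehicle and 894, 891, 992 and 868 with both drugs at 18 h. Replicate 3 had the highest treated signal at 6 h, and the groups overlapped at 18 h. The change of effect was -0.85 ± 0.15 (limma, adjusted p = 0.00257) and lost its call without replicate 1 (-0.81, adjusted p = 0.128). Other KLHL29 probe sets gave -0.12, -0.26 and 0.13, and the mean of its probe sets gave -0.28 (adjusted p = 1), so this call too rests on 1 probe set.

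SFTPD, which encodes the lung collectin surfactant protein D, had low signals that rose at 6 h. They were 35.4, 46.7, 34.4 and 37 with vehicle and 79.5, 78.2, 64.5 and 73.4 with both drugs at 6 h, then 43.9, 39.4, 43 and 46.7 with vehicle and 37.6, 51.4, 38 and 44 with both drugs at 18 h. The 6 h groups did not overlap and the 18 h groups did. The change of effect was -0.74 ± 0.13 (limma, adjusted p = 0.00413), with no call without replicate 1 (-0.64, adjusted p = 0.587) or replicate 4 (-0.72, adjusted p = 0.384).

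The 4 genes called in the other direction were lower with both drugs at 6 h and near or above vehicle at 18 h. ZNF143, a zinc finger transcription factor that binds promoters, gave 669.9, 686, 733 and 786 with vehicle and 433, 496, 436 and 560.1 with both drugs at 6 h. Its 18 h signals were 790, 727, 830.1 and 744 with vehicle and 851, 840.5, 827 and 786 with both drugs. The treated arrays were lowest at 6 h and overlapped vehicle at 18 h, and the effect went from -0.57 ± 0.08 to 0.10 ± 0.08 (change 0.66 ± 0.11, limma adjusted p = 0.00217). Without replicate 2 the change was as large (0.67) with an adjusted p of 0.0874. Another ZNF143 probe set gave 0.08, and the mean of both gave 0.37 (adjusted p = 1).

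MVK, mevalonate kinase of the cholesterol pathway, gave 2009, 2064, 2423 and 2087 with vehicle and 1428, 1453, 1500 and 1455 with both drugs at 6 h. The 18 h arrays gave 2081, 2008, 2146 and 1970 with vehicle and 2197, 2200, 2018 and 2304 with both drugs. The 4 treated arrays at 6 h lay close together and under every other array of the 4 groups. The change of effect was 0.63 ± 0.12 (limma, adjusted p = 0.00625), and the gene's other probe sets gave 0.96, 1.08 and -0.09. The call was lost without replicate 1, 2 or 4 (adjusted p = 0.0605, 0.37 and 0.507).

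SRRT, which takes part in RNA capping and miRNA processing, gave 4963, 4995, 5141 and 4806 with vehicle and 4089, 4285, 3826 and 3901 with both drugs at 6 h. At 18 h it gave 4349, 4165, 5009 and 4209 with vehicle and 5390, 4533, 5918 and 4869 with both drugs. Its treated arrays were under vehicle at 6 h and, at 18 h, had the higher mean with overlap (change 0.53 ± 0.11, limma adjusted p = 0.0313). Within each replicate the treated SRRT array exceeded its vehicle array at 18 h (limma with the replicate term, adjusted p = 0.102 for the 18 h effect). TMEM126A, a mitochondrial membrane protein, gave 4306, 4018, 3798 and 4112 with vehicle and 3307, 3199, 3134 and 3381 with both drugs at 6 h. By 18 h the values were 3928, 3984, 3969 and 4197 with vehicle and 3857, 4289, 4165 and 4578 with both drugs. Its groups were separate at 6 h and overlapped at 18 h (change 0.38 ± 0.08, limma adjusted p = 0.0385). Both calls were close to the threshold: SRRT lost it without replicate 1, 2 or 4 (adjusted p = 0.862, 0.0874 and 0.507), and TMEM126A without any of the 4 replicates (0.17 to 0.507), and leaving out a single array ended the SRRT call for 11 of the 16 arrays and the TMEM126A call for 12 (0.0562 to 0.189). With the replicate term all 9 genes were called, with adjusted p from 1.88e-07 for SLC7A2 to 0.00338 for TMEM126A.

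**Figure D2:**
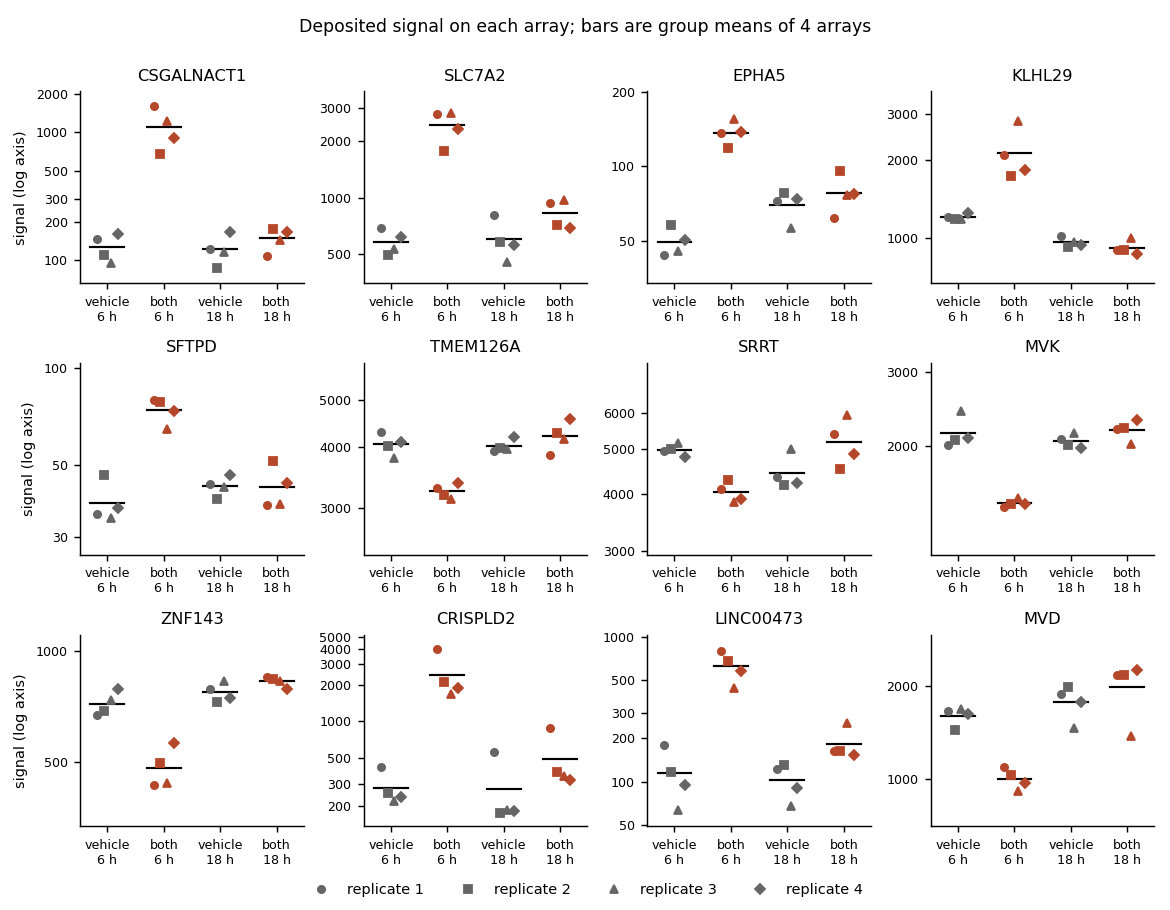
Deposited signal of 12 genes on each of the 16 arrays (log axis), by group, with symbols for replicates and bars for the mean of 4 arrays. For the 9 genes called without a replicate term and for CRISPLD2, LINC00473 and MVD, the 6 h arrays of both drugs stand apart from the vehicle arrays, and at 18 h the groups overlap in all but LINC00473.

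A further set of genes, some with changes greater than that of SLC7A2, was called only with the replicate term. CRISPLD2, a secreted protein that glucocorticoids also induce, gave 415, 254, 220.2 and 236 with vehicle and 4012, 2119, 1688 and 1873 with both drugs at 6 h. The 18 h arrays gave 562, 175, 184 and 182 with vehicle and 888, 378, 349.9 and 326 with both drugs. Replicate 1 was the highest in every group, and in each replicate the treated array exceeded its vehicle array at both times. The effect fell from 2.99 to 0.84, a change of -2.15 ± 0.52 without the replicate term (limma, adjusted p = 0.129) and ± 0.23 with it (adjusted p = 2.09e-08). PDK4, a kinase that shuts off pyruvate dehydrogenase, ranged more widely: 443, 57.4, 929 and 29.6 with vehicle and 3890, 483, 7834 and 377 with both drugs at 6 h, then 376, 46.6, 988 and 42.4 with vehicle and 794, 124, 2961 and 121 with both drugs at 18 h. Replicate 3 had the highest level in each group and replicates 2 and 4 the lowest, and the change was -1.75 with an adjusted p of 0.000721 with the replicate term and 1 without it. Both genes kept a rise at 18 h with the replicate term (adjusted p = 0.00345 and 0.00163).

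LINC00473, a long noncoding RNA induced by CREB, gave 179.8, 118, 64 and 95.6 with vehicle and 792, 683, 440.2 and 579 with both drugs at 6 h. At 18 h it gave 123, 130.1, 67.7 and 90 with vehicle and 162, 164, 253 and 153 with both drugs. The treated arrays were above all vehicle arrays at both times, but the 18 h effect missed the threshold in both fits (limma, adjusted p = 0.0565 with the replicate term). The effect went from 2.34 to 0.76 (change -1.58, limma adjusted p = 0.000352 with the replicate term and 0.385 without). C5AR1, the receptor for complement C5a, went from 1.60 to 0.16, and GALNT15, an enzyme that starts O-linked glycans, from 2.01 to 0.65. Lipoprotein lipase (LPL) went from 2.11 to 0.74 and the growth factor BMP2 from 1.33 to -0.03. All 4 passed only with the replicate term (adjusted p = 0.000135, 0.00499, 0.000162 and 0.00726), and BMP2 gave at most 5.53 in both replicates 2 and 4 in every group but the 6 h arrays of both drugs, where it gave 37.0 and 23.0.

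Of the 112 negative genes in that fit, 109 had been called higher at 6 h (2.55% of all genes) and 23 changed by at least 2-fold. The change of effect subtracts the 6 h effect, so the choice of genes largely fixes the count of 109. In the fit with the replicate term, 27 of the 505 genes higher at 6 h were called higher at 18 h too, among them SMOC1, PDK4, PDE7B, STEAP4, LPL, CEBPD and CRISPLD2. SMOC1, a matricellular calcium-binding protein, had the greatest 18 h effect of these 7 (2.37 at 6 h, 1.43 at 18 h). Several other members of the 112 are picked out here after their values were seen: CD55, an inhibitor of complement, went from 0.92 to -0.03, the insulin-like growth factor receptor IGF1R from 1.13 to 0.02, the clock kinase CSNK1E from 1.08 to 0.06, and the lysosomal cholesterol transporter NPC1 from 0.80 to 0.13. BRWD1, a bromodomain protein, was the 1 gene that crossed over, with 0.41 at 6 h and -0.35 at 18 h (limma with the replicate term, adjusted p = 0.000563 and 0.0279).

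Among the positive genes, EGR1, an immediate early transcription factor, had the greatest change. It gave 1449, 1551, 1324 and 1049 with vehicle and 511, 622, 459 and 642 with both drugs at 6 h, then 2220, 1720, 2365 and 1509 with vehicle and 1782, 1677, 1784 and 1544 with both drugs at 18 h. At 6 h every treated array was under every vehicle array, and at 18 h the groups overlapped (-1.24 to -0.18, change 1.06, limma adjusted p = 0.17 and 0.0107 with the replicate term). NAV3, a microtubule-binding protein, changed by 0.88 and was still -0.59 at 18 h (adjusted p = 0.0528 with the replicate term). The RNA-binding protein RBM12 (0.88), the zinc finger protein PRDM10 (0.67), the proliferation marker MKI67 (0.66), PRELID2 (0.58) and DIDO1 (0.58) followed, all called only with the replicate term. The DIDO1 value rests on 1 probe set, as its others gave -0.15, 0.41 and -0.41 and the mean of all of them 0.11. C1orf198, called with the replicate term, and C1QTNF2, called for a change of effect in no fit, were among the greatest falls at 6 h (-0.68 and -0.67) and were at -0.26 and 0.08 at 18 h. Of the 118 positive genes, 92 had been called lower at 6 h (2.72% of all genes) and 26 had not been called there. The choice by the change of effect largely fixes the count of 92 too.

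Calls that needed the replicate term depended on single replicates. Of 37 named genes called for a change of effect with that term alone, 9 kept the call without replicate 1, 11 without replicate 2, 22 without replicate 3 and 14 without replicate 4. CRISPLD2, PDK4, C5AR1, LPL, PDE3A and IGFBP3 kept it in all 4 cases. BIRC5, CCNB2, DDRGK1, DUSP4, HMGCS1, PRELID2, RBM12, SIK1, TPX2, TRIB3 and VEGFC kept it in none (limma, adjusted p = 0.0511 to 0.539). EGR1 lost it without replicate 2 or 3 (0.189 and 0.11), LINC00473 without replicate 2 (0.0549) and MVD without replicate 4 (0.0786). PDE7B, PDE4D, SMOC1, NAV3, PRDM10, DIDO1, PID1, GPRC5A and C1orf198 kept it only without replicate 3. Of the 9 genes called in both fits, 6 kept the call with the term in all 4 cases, SRRT lost it without replicate 1 (0.056), and SFTPD and TMEM126A without replicate 1 (0.129 and 0.0593) or 4 (0.0511 and 0.0718).

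Changes that appeared late rather than faded were few. CARS1, DDRGK1, MRPL21, RHBDD2 and SIGIRR were called higher at 18 h and for a positive change with the replicate term, and none was called at 6 h; they were chosen after their values were seen. DDRGK1, which takes part in UFM1 protein modification, gave 1777, 1944, 1890 and 2085 with vehicle and 2364, 2356, 2299 and 2341 with both drugs at 18 h, with no overlap (0.28 ± 0.05, limma adjusted p = 0.0147). The vehicle arrays had been at 2220, 2185, 2194 and 2363 at 6 h, a vehicle difference of -0.22 from 6 to 18 h. Of the other genes called at 18 h, CLIC5, a chloride channel family protein, was at -0.52 at 6 h and -1.02 at 18 h, and TNS1, a focal adhesion protein, at -0.10 and -0.57. Another TNS1 probe set ran the other way, from -0.79 to -0.39, and the rest gave -0.10 to -0.04 at 6 h and -0.47 to -0.29 at 18 h. Other CLIC5 probe sets gave -0.45 to 0.12 at 6 h and -0.41 to 0.06 at 18 h. TMEM158 was at -0.19 and -0.51, FSD2 at 0.15 and 0.57, and the dim MMP20 at 0.11 and 0.86. None of these 5 passed the test for a change of effect (limma, adjusted p = 0.362 to 1 without the replicate term and 0.0556 to 0.569 with it), so a difference between the times was not shown for them.

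Promoter sequence is a property the choice of comparison did not use. The cAMP response element was searched as TGACGTCA (full site) and as TGACG on either strand (short site, which every full site contains) in windows from 250 bases before to 50 after a gene's start, from RefSeq, GRCh38.p14. The short site was in 43.0% of the 93 negative genes with a window, 42.7% of the 96 positive genes and 34.7% of all 15384 genes. The full site was in 4.3%, 6.25% and 3.1%. Counted by window, since genes with several starts have several, the short site was in 25.1% of negative, 32.4% of positive and 28.0% of all windows. The promoters of 3 genes are printed for their sites, in capitals: PDE7B (chr6:135851451-135851750, plus strand) and ZNF143 (chr11:9460762-9461061, plus strand) each hold a full site and had 6 h effects of opposite sign (2.10 and -0.57), and LINC00473 (chr6:165987990-165988289, minus strand) holds 2 short sites. A match is a run of letters, not a measured binding site.
PDE7B: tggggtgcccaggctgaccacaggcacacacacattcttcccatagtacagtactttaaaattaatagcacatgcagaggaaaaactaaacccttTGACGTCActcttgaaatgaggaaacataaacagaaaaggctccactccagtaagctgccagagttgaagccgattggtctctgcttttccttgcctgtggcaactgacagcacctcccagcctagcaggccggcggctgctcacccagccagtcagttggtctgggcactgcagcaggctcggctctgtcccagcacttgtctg
ZNF143: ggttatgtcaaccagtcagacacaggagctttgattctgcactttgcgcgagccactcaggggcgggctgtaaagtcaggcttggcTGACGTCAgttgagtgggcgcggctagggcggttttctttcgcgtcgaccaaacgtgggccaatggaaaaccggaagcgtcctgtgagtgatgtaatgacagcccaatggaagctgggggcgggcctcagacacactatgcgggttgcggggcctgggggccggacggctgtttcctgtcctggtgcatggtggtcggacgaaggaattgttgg
LINC00473: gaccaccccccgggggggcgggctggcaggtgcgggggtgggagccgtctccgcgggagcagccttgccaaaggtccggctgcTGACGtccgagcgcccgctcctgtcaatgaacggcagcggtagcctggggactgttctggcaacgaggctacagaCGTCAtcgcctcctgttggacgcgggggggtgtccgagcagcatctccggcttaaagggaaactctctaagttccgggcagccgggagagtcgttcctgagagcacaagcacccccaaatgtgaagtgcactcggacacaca

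MVK lies head to head with MMAB, which encodes an enzyme of cobalamin metabolism, and MMAB was picked out for that reason after its values were seen. Their starts are 290 bases apart and 211 bases of the windows are shared, at chr12:109573544-109573843 on the plus strand for MVK and chr12:109573455-109573754 on the minus strand for MMAB. Capitals mark CCAAT boxes on either strand (CCAAT or ATTGG), of which all 5 in each window lie in the shared stretch; 41.7% of all genes with a window hold at least 1.
MVK: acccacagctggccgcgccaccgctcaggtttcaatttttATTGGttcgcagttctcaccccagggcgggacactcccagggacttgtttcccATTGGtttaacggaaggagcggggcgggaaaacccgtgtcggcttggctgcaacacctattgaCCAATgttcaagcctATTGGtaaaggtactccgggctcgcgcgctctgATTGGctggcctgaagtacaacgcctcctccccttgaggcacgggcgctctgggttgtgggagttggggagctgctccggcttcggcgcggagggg
MMAB: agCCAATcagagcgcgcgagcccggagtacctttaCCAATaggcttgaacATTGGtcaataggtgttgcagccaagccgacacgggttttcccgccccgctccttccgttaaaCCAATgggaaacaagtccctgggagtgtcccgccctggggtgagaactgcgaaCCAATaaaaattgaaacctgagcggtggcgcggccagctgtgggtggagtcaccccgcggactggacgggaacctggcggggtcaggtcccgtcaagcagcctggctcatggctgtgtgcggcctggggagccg

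MMAB moved with MVK: its mean signal was 2280 with vehicle and 1653 with both drugs at 6 h, and 2425 and 2510 at 18 h. The highest treated array at 6 h (1739) was under the lowest vehicle array (2143). Its change of effect was 0.51 ± 0.12, with a limma adjusted p of 0.129 without the replicate term and 0.00543 with it.

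The time course of the combination effect differed among the genes that faded. LINC00473 was already up at 1 h (1.51) and highest at 2 h (3.35). CRISPLD2 rose between 1 h (0.23) and 2 h (2.90) and was at 2.99 at 6 h. CSGALNACT1 was at 0.38 at 1 h and -0.01 at 2 h, and EPHA5 at -0.07 and -0.03, and neither gene was called at 1 or 2 h in either fit. By distance over the 4 effects, the genes most like CSGALNACT1 were GALNT15 (1.17 log2 units), PDE7B (1.19) and PID1 (1.41). Among the falls, EGR1 was lowest at 2 h (-1.55) and ZNF143 was down by 2 h (-0.44), while MVD (-0.14), MVK (-0.16) and SRRT (-0.03) were near 0 then.

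**Figure D3:**
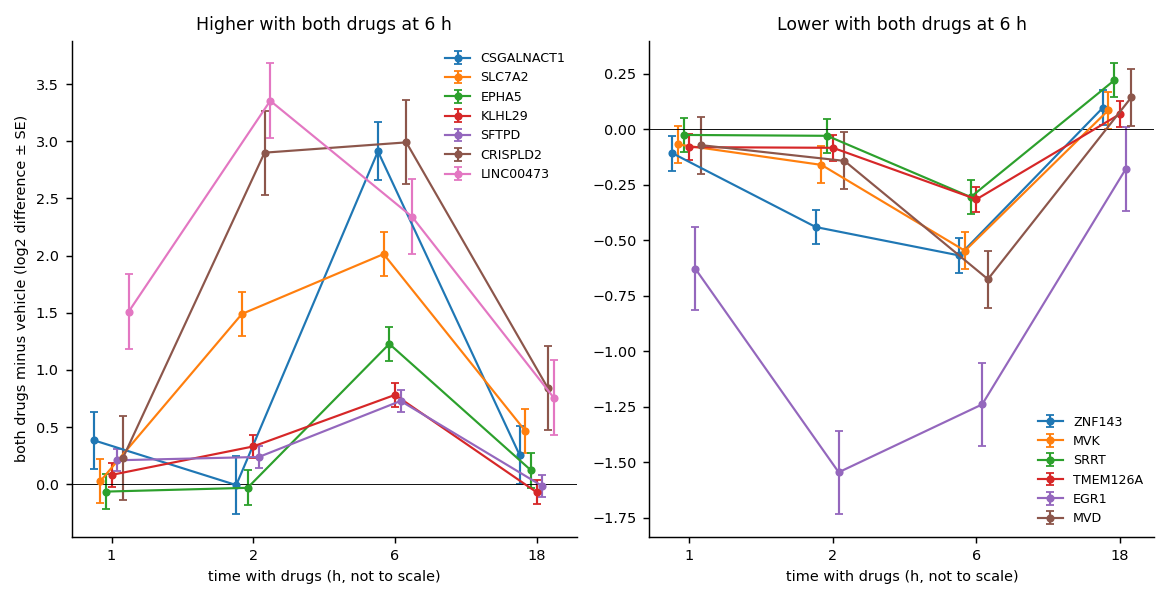
Effect of both drugs against vehicle (log2 difference, bars ± SE, 4 arrays per group) at 1, 2, 6 and 18 h for 7 genes higher and 6 genes lower at 6 h; the time axis is not to scale. LINC00473 peaks at 2 h, CSGALNACT1 and EPHA5 are near 0 at 2 h and high at 6 h, and all 13 genes are closer to 0 at 18 h than at 6 h.

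CREB targets are the genes nearest to protein kinase A in the pathway. Of 26 measured, 6 rose (all genes 0.496%) and 1 fell (0.263%) at 6 h, 12 and 1 with the replicate term (2.55% and 2.72%), and none was called at 18 h in either fit. The median effect went from 0.58 at 6 h to 0.17 at 18 h, and the median change of effect was -0.37 against 0.03 over all genes. For the change of effect none was called without the replicate term. With it LINC00473, PDE4D and SIK1 were negative (0.566% of all genes) and EGR1 positive (0.597%). SIK1, a kinase that holds CREB coactivators out of the nucleus, gave 713, 445, 629.7 and 424 with vehicle and 2274, 1030, 3604 and 795 with both drugs at 6 h. By 18 h the values were 544, 457, 724 and 471 with vehicle and 770.4, 520.5, 1859 and 488 with both drugs. The groups were separate at 6 h and overlapped at 18 h, with replicate 3 the highest treated array both times. Within each replicate the treated SIK1 array exceeded its vehicle array at 18 h too (limma with the replicate term, adjusted p = 0.271). The nuclear receptors NR4A1, NR4A2 and NR4A3 had effects of 0.66, 2.38 and 2.62 at 6 h and 0.15, 0.68 and 0.93 at 18 h. Their change of effect passed in neither fit (limma with the replicate term, adjusted p = 0.596, 0.211 and 0.104). Both NR4A2 and NR4A3 had been far higher at 2 h (4.22 and 5.46). The kinase SGK1 went from 0.87 to 0.12 and did not pass either (adjusted p = 0.0709).

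Phosphodiesterases include the target of GSK 256066. Of 13 measured, PDE3A, PDE4D and PDE7B had a negative change of effect with the replicate term (0.566% of all genes). None was called without it (0.0253% negative and 0.0202% positive over all genes), and the list's median was -0.06. PDE7B gave 122, 114, 95.5 and 78 with vehicle and 562, 419.8, 484 and 486 with both drugs at 6 h, then 107, 106, 96 and 102 with vehicle and 158, 162, 394 and 157 with both drugs at 18 h. Its treated arrays were above vehicle at both times, and replicate 3 stood highest at 18 h (change -1.23, limma adjusted p = 0.179 and 0.0203 with the replicate term). PDE4D gave 431, 318, 420.5 and 341 with vehicle and 1800, 816, 3384 and 816 with both drugs at 6 h. The 18 h arrays gave 389, 289, 463 and 333 with vehicle and 572, 423, 1569 and 408 with both drugs, again with replicate 3 the highest. Within each replicate its treated array exceeded its vehicle array at both times (change -1.11, adjusted p = 0.0329 with the replicate term and 1 without). PDE3A, which hydrolyses both cAMP and cGMP, went from 1.43 to 0.15. Neither of the other PDE4 genes measured was called: PDE4A was at 0.06 and 0.12, and PDE4B at 0.46 and 0.42, with intervals for the change of effect of -0.21 to 0.34 and -0.68 to 0.59 (95%). Of 33 components of the cAMP pathway, AKAP12 and SIK1 had a negative change with the replicate term (0.566% of all genes). AKAP12, a scaffold for protein kinase A, went from 0.59 to -0.12 (limma with that term, adjusted p = 0.00101).

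No glucocorticoid was part of the treatment, and several glucocorticoid-inducible genes rose at 6 h: 6 of 23 measured were called higher, against 0.496% of all genes, 12 with the replicate term (2.55%), and none lower. At 18 h none was called, and 3 were called higher with the replicate term (0.253% of all genes). The list's median effect went from 0.28 to 0.12. CRISPLD2, STEAP4 and CEBPD had a negative change of effect with the replicate term (0.566% of all genes). STEAP4, a metalloreductase, gave 397, 444, 209.6 and 406 with vehicle and 1766, 1323, 1458 and 1306 with both drugs at 6 h. At 18 h it gave 395, 398, 221 and 325 with vehicle and 615, 608, 672 and 449.9 with both drugs, still above every vehicle array (change -1.20, limma adjusted p = 0.0042 with the replicate term, 0.7 without). CEBPD, a transcription factor, went from 0.83 to 0.35. Of 24 growth factors, BMP2 and VEGFC were called negative with the replicate term (0.566% of all genes). VEGFC, which drives lymphatic vessel growth, went from 0.35 to -0.11. Other list members called negative with the replicate term were IGFBP3 (-0.79), the ERK phosphatase DUSP4 (-0.77), MXI1 (-0.52) and EDEM1 (-0.33), and TRIB3 was positive (0.33).

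Several genes of cholesterol synthesis were lower with both drugs at 6 h and not at 18 h. Of 18 measured, 5 were called lower at 6 h, against 0.263% of all genes, 8 with the replicate term (2.72%), and none at 18 h. The median effect went from -0.24 to 0.02, and the change of effect was above 0 in 16 of 18, against 56.5% of all genes. MVK was called (0.0202% of all genes were called positive), and HMGCS1 and MVD as well with the replicate term (0.597%). MVD, mevalonate diphosphate decarboxylase, gave 1668, 1442, 1690 and 1634 with vehicle and 1093, 1029, 914 and 969 with both drugs at 6 h. By 18 h the values were 1895, 1997, 1462 and 1785 with vehicle and 2178, 2171, 1377 and 2263 with both drugs, where replicate 3 was the lowest of each group. Its change of effect was 0.82 ± 0.18 (limma, adjusted p = 0.0572, 0.000691 with the replicate term). HMGCS1, which makes the substrate of the pathway's rate-limiting enzyme, went from -0.31 to 0.08 (adjusted p = 0.0139 with the replicate term). Another HMGCS1 probe set, with a mean signal of 9484, gave a change of 0.19 and was not called (limma with the replicate term, adjusted p = 0.805). From 6 to 18 h, 10 of the 18 rose under both drugs (6.73% of all genes), 15 with the replicate term (14.3%). Under vehicle 1 rose (3.09%), and with the term 4 rose (8.92%) and 1 fell (4.74%); the difference between these counts was not tested.

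Mitotic genes rose from 6 to 18 h in both groups, in 31 of 36 under vehicle (3.09% of all genes) and 32 of 36 under both drugs (6.73%). In the fit with the replicate term 35 rose in each (8.92% and 14.3%). Beside that, both drugs against vehicle lowered 1 of them at 6 h (0.263% of all genes), 9 with the replicate term (2.72%), and none at 18 h. The median effect went from -0.14 to 0.06, and the change of effect was above 0 in 30 of 36 (83.3%, against 56.5% of all genes). With the replicate term CCNB2, TPX2 and BIRC5, which encode a mitotic cyclin, a spindle factor and survivin, were called positive (0.597% of all genes). Their changes were 0.46, 0.37 and 0.32 (limma with that term, adjusted p = 0.0462, 0.0326 and 0.0357). Other CCNB2 probe sets, with mean signals of 17.5 and 181, gave -0.112 and -0.335. Those of BIRC5 gave 0.207, 0.402 and 0.305, and none of these other probe sets was called. Of 28 DNA replication genes none was called in either fit, with a median change of 0.06. None was called in either fit among cytokines and chemokines (28), circadian clock genes (16), interferon-stimulated genes (32), NRF2 targets (17) or squamous differentiation genes (21).

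Lists drawn from other arrays of the study, which share none with the 4 groups, went in the same direction. They are not independent of the 4 groups. Same-numbered 6 h arrays of indacaterol and of both drugs deviated together, with correlations of 0.326 to 0.783. Over all genes the change of effect was called negative in 0.0253% and positive in 0.0202%, and with the replicate term in 0.566% and 0.597%. The 170 genes higher with both drugs at 2 h (0.86% of those tested) had a median change of effect of -0.35, with 1 called negative (32 with the replicate term) and none positive. Of these 170, 43 were called higher at 6 h too (0.496% of all genes), 93 with the replicate term (2.55%). Their median effect was 0.41 at 6 h and 0.07 at 18 h. The change of effect subtracts the 6 h effect, so rises still present at 6 h enter it with a minus sign. The 38 lower at 2 h (0.192%) had a median of 0.17, with 1 called positive (2 with the replicate term) and none negative. The 30 genes higher with indacaterol than with GSK 256066 at 6 h (0.152%) had a median of -0.78, with 4 called negative (21 with the replicate term). Their median effect of both drugs was 0.91 at 6 h and 0.24 at 18 h. Of these 30, 29 were called higher with both drugs at 6 h (0.496% of all genes). The change of effect subtracts that 6 h effect, so the choice of this list largely fixes its direction. With the replicate term, or without a replicate, the list was redrawn and its median ranged from -1.42 without replicate 2 to -0.46 with the term. The 4 genes lower in that comparison (0.0202%) had a median change of 0.47, with 1 called (3 with the term). The sign of each of these medians was the same in all 4 replicates.

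**Figure D4:**
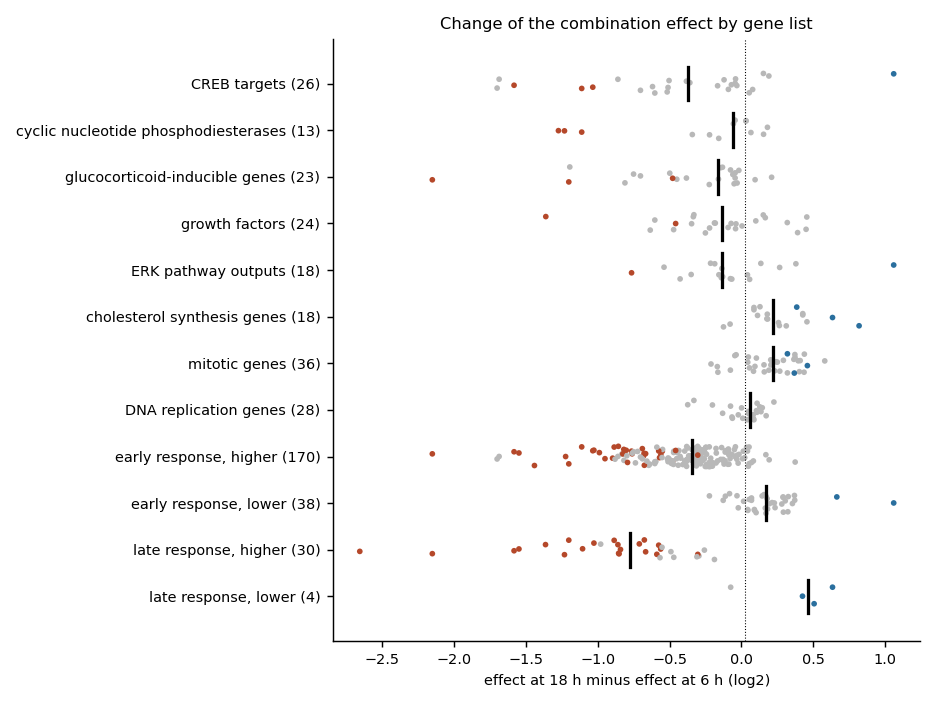
Change of effect (log2, 18 h minus 6 h) of every measured member of 8 gene lists and 4 lists drawn from other arrays, with the number measured; vertical bars are list medians and the dotted line the median of all genes (0.03). Red and blue points are called negative and positive with the replicate term. The 30 late response genes lie furthest to the left with a median of -0.78, and cholesterol synthesis and mitotic genes lie to the right with medians of 0.22.

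The combination was set beside each drug alone at the same doses and times; these comparisons share the vehicle arrays. With indacaterol alone the change of effect was called negative in 3 genes (0.0152%) and positive in none (299 at an unadjusted p under 0.05), and in 66 (0.334%) and 6 (0.0303%) with the replicate term. CSGALNACT1 changed by -2.18 with indacaterol, CRISPLD2 by -2.28, SLC7A2 by -1.59, MVK by 0.53 and EGR1 by 0.63. With GSK 256066 alone limma called no gene in either fit, with 222 genes at an unadjusted p under 0.05 (327 with the replicate term), and the same genes changed by 0.03, -0.16, -0.13, 0.09 and 0.23.

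The direct test of the combination's change of effect against that of indacaterol called no gene by limma, with or without the replicate term, with 142 and 275 genes at an unadjusted p under 0.05. This does not show that they fade alike. For CSGALNACT1 the difference was -0.48, with a 95% interval of -1.20 to 0.24, and for SLC7A2 0.04 (-0.51 to 0.59). For SFTPD it was -0.37 (-0.64 to -0.10), for ZNF143 0.26 (0.04 to 0.48) and for TMEM126A 0.18 (0.02 to 0.34), intervals that leave out 0 but with an adjusted p of 1.

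**Figure D5:**
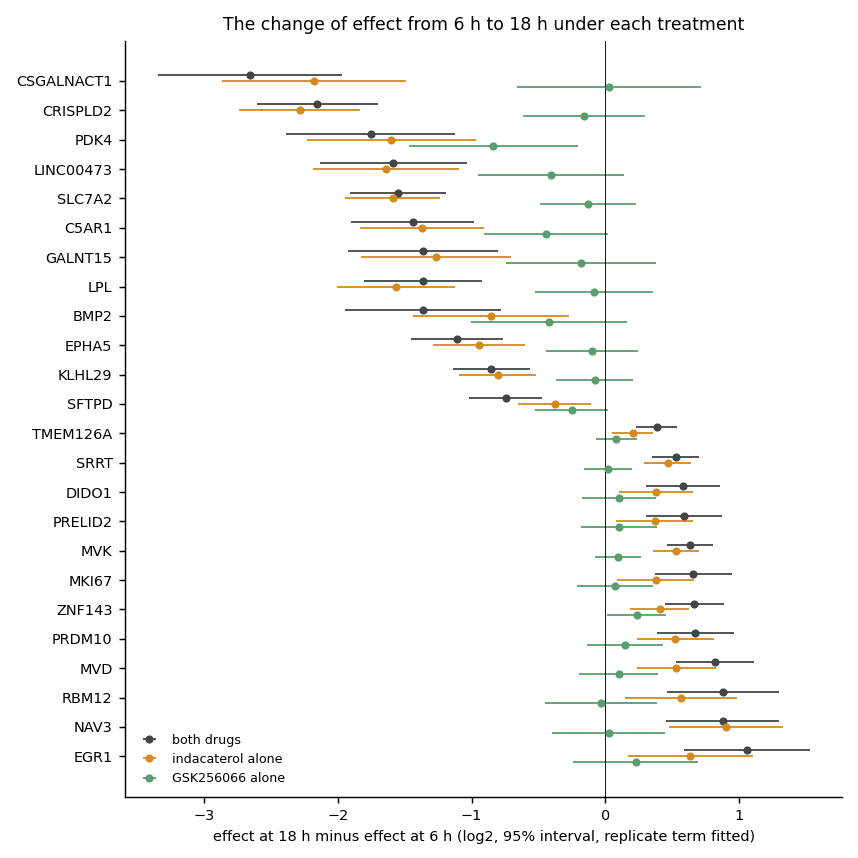
Change of effect from 6 to 18 h (log2, bars are 95% intervals from the fit with the replicate term) for 24 named genes with both drugs, indacaterol alone and GSK 256066 alone, each against vehicle. The intervals for both drugs and for indacaterol overlap in all 24 genes, and those for GSK 256066 span 0 in all but PDK4 and ZNF143.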

How the data were processed

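The samples are 64 expression arrays of BEAS-2B cells, 4 per group of treatment and time; RNA was labelled as biotinylated cRNA with a 3' IVT kit, per the labels' protocols. The deposited values are linear intensities per probe set, and the submitters' processing notes name PLIER and Transcriptome Analysis Console 4 without settings. A pseudocount of 16 was added, log2 was taken, and each gene was represented by its brightest probe set: of 54675 probe sets, 41091 carry 1 gene symbol, 1801 several and 11721 none, which left 19775 genes (41037 symbols updated through gene ID). Group means were estimated with limma 3.58.1 (R 4.3.3) from the 64 arrays together (48 residual degrees of freedom), and again with replicate number as a term (45), with 2-sided tests and Benjamini-Hochberg adjustment over all genes at 0.05. Arrays limit precision by their number. The steps were tested on simulated data. Replicate numbers come from the sample titles, and every same-number pair among the 4 groups correlated over 0.1 (0.232 to 0.857), so the numbers were taken to pair the arrays. No pair of arrays held identical values.

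Genes named are the greatest changes of effect among called genes (up to 12 each way, filled from the fit with the replicate term), the 5 greatest 6 h and 18 h effects each way, the 3 greatest vehicle changes each way, called members of the gene lists, and a few fixed names; others are said to be chosen after their values were seen. The members and lists were chosen with earlier results of these data known. Alternatives were the replicate term, only the 4 groups, other pseudocounts, quantile scaling, centring, a filter on low signal, the mean of probe sets, and leaving out replicates or arrays. No set test was run.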

Additional observations from a re-analysis of the deposited data

Results flagged for a closer look

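The effect of both drugs differed between 6 and 18 h by the test of the difference itself in 9 genes (limma, adjusted p under 0.05), with values on the log2(signal + 16) scale, 18 h minus 6 h. The values were -2.66 for CSGALNACT1, -1.55 for SLC7A2, -1.11 for EPHA5, -0.85 for KLHL29 and -0.745 for SFTPD. They were 0.66 for ZNF143, 0.63 for MVK, 0.53 for SRRT and 0.38 for TMEM126A.

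Of 96 combinations of 24 named genes and 4 groups, 6 held an array far from the other replicates, with a gap to the nearest, as a share of the group's range, above Dixon's 95% critical value for 4 samples; chance gives about 1 in 20. CRISPLD2 in replicate 1 stood high at 18 h, with 561.8 against 175.1 to 183.6 with vehicle (gap 0.961) and 888.5 against 325.7 to 378.5 with both drugs (0.852). LINC00473 with both drugs at 18 h was 253.2 in replicate 3 against 153.2 to 164.2 (0.864). NAV3 with vehicle at 6 h was 126.7 in replicate 3 against 324.8 to 383.2 (0.846), and MVD with both drugs at 18 h was 1377 there against 2171 to 2263 (0.916). MKI67 with vehicle at 18 h was 2184 in replicate 2 against 2720 to 2821 (0.859). Of the 6, 3 lay in replicate 3, the replicate with high keratin signals.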

How the results depend on the processing

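With the replicate block 230 genes were called for the change of effect, 1043 at 6 h, 80 at 18 h, 2701 for vehicle and 4060 for both drugs from 6 to 18 h (the numbers pair the arrays), and the late response median was -0.46. With only the 4 groups in the fit the first 3 counts were 1, 65 and 0, and with only the 4 groups and the block the 5 counts were 64, 849, 37, 3006 and 4275. Quantile normalization gave 38 for the change of effect and 335 at 6 h, with the block 601, 1771, 190, 3510 and 4511 and a late response median of -0.40; centring gave 4 at 18 h. Leaving out a replicate or a single array gave 3 to 21 for the change of effect, 59 to 171 at 6 h, 0 to 10 at 18 h, 293 to 1183 for vehicle, 1024 to 2208 for both drugs, and medians of -0.53 to -0.30 (early list) and -1.42 to -0.67 (late list). With the block, leaving out replicates 1, 2, 3 and 4 gave 32, 66, 79 and 48 for the change of effect, 435, 691, 505 and 657 at 6 h, 9, 47, 15 and 63 at 18 h, 1742, 1886, 2149 and 1516 for vehicle, 3010, 3090, 3552 and 2799 for both drugs, and late list medians of -0.56, -0.54, -0.49 and -0.63. Fewer arrays enter these fits; otherwise the cause was not tested. The comparison with indacaterol gave 0 in all of these. No called value changed sign; among uncalled values the change of effect of PDE4B changed sign in 12 of 35 alternatives (-0.35 to 0.10), and those of PDE4A and SHISA9 in 1 each. Of the values of single named genes over all alternatives, 2011 kept their side of the threshold, 156 passed it newly and 67 lost it. CSGALNACT1 alone of the 9 genes kept its call in every alternative run; the other 8 lost it with only the 4 groups, MVK and SRRT with quantile normalization, TMEM126A with centring, and EPHA5, KLHL29, ZNF143 and SRRT with the mean of all probe sets. Of 13522 probe sets without a single symbol, none was called for the change of effect without the block and 8 with it (2 positive, 6 negative). The number of arrays limits all of these.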
